A study of Mus musculus with 6 samples.

Results

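The 6 messenger RNAs described here are those that the mitochondrial genome encodes for complexes III, IV and V of oxidative phosphorylation. They were chosen by name from the 56953 features of the count table, and all 6 were found and passed the low-count filter. mt-Cytb encodes cytochrome b of complex III, mt-Co1, mt-Co2 and mt-Co3 encode the catalytic core of complex IV (cytochrome c oxidase), and mt-Atp6 and mt-Atp8 encode membrane subunits of complex V (ATP synthase). Polyadenylated RNA was sequenced from microdissected tailbud, the posterior end of the mouse embryo, at embryonic day 9.5. There were 3 libraries of wild-type tissue and 3 of tissue homozygous for the Fgfr1 FCPG allele (Fgfr1 FCPG/FCPG, called the mutant below), whose receptor carries point mutations in residues that bind signaling effectors. No treatment is named for either genotype. The sources used here do not name the strain, the litters, or whether embryos were pooled, so p-values measure the spread between these libraries, which may be technical in part. The study set the genotypes side by side to ask what transcription in developing mesoderm needs from canonical FGF signaling.

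Mitochondrial DNA is transcribed from both strands as long precursors, from which transfer RNAs are cut out and the messenger RNAs between them released. A poly(A) tail is then added, and in some messages its first bases complete the stop codon. Complex III passes electrons from ubiquinol to cytochrome c, complex IV passes them on to oxygen, and complex V uses the proton gradient that results to make ATP. Each of these complexes also holds subunits from nuclear genes, so the mitochondrial messages code for a few core parts of each.

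Total counts per library ran from 16984568 to 27316475, and the 6 messages themselves were counted at 7624 to 955039 reads per gene and library, so counting error was small beside the spread between libraries. Y-linked genes (the summed level of Ddx3y, Eif2s3y, Kdm5d and Uty) were present in 1 wild-type and 2 mutant libraries, at no less than 584 CPM (counts relative to library size), against at most 0.598 CPM in the others. Feature names outside the mitochondrial genome could not be relied on. The Y-linked names are among these, and embryo sex was read from them alone because they split the libraries so widely. Of 36 nuclear genes for subunits of complexes III, IV and V, which nearly all cells use, 7 reached a mean of 10 CPM and the median was 0.205 CPM, and Actb stood at 3.36 CPM. Nuclear genes of the pathway are therefore not described, and the tissue label could not be checked: of 8 tailbud markers, 1 (Tbx6) reached 10 CPM, while T and Nkx1-2 were at 0 counts in every library.

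The ends of the 6 coding sequences are shown because the libraries rest on poly(A) capture. Their annotated stop codons also differ in how far they depend on the tail. The end of mt-Atp8 lies inside the message it shares with mt-Atp6 and has no tail of its own. The sequences are the last 24 bases of each GENCODE M21 transcript, 5′ to 3′, with the encoded letters of the stop codon in capitals.
mt-Cytb: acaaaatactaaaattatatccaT
mt-Co1: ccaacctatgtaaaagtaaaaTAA
mt-Co2: aactgatctgcttcaataattTAA
mt-Co3: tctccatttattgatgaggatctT
mt-Atp6: ctatatctacatgataatacaTAA
mt-Atp8: cctcattcattaccccaacaaTAA
In mt-Cytb and mt-Co3 the annotated transcript stops at the T, and the tail supplies the rest of the codon. The annotated transcripts of the other 4 carry a complete TAA. The last base of the mt-Atp6 TAA is also the first base of mt-Co3. Whether the message of mt-Atp6 keeps that base once cut was not tested. All 6 start with ATG. Their lengths were 1144 bases for mt-Cytb, 1545 for mt-Co1, 684 for mt-Co2, 784 for mt-Co3, 681 for mt-Atp6 and 204 for mt-Atp8. Their GC content ran from 31.9% in mt-Atp8 to 39.9% in mt-Co1.

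mt-Atp8 and mt-Atp6 lie on 1 message and share 43 bases, which are read in different frames. The last 60 bases of mt-Atp8 and the first 60 of mt-Atp6 show this, with the shared bases in capitals.
mt-Atp8: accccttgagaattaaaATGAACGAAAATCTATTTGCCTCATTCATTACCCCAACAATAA
mt-Atp6: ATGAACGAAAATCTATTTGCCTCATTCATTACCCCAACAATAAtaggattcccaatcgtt
The capitals hold the start codon of mt-Atp6 at their left end and the stop codon of mt-Atp8 at their right end. mt-Atp6 in turn shares 1 base with mt-Co3. How reads that fall on both genes were assigned is not given in the sources used here, so counts of mt-Atp8 and mt-Atp6 are uncertain where they overlap, and their sum is given too.

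All 6 messages fell in the mutant. Their log2 fold changes, mutant over wild type, ran from -1.21 to -0.78 with a median of -1.04, against a median of -0.01 over all 14550 features tested. Each passed the quasi-likelihood test of edgeR at an adjusted p below 0.05, the largest adjusted p being 0.0236. By the same rule 3.67% of all features were called lower. The 2 groups did not overlap for any of the 6, whereas 16.1% of all features had every mutant library below every wild-type one. mt-Atp6 and mt-Atp8 lie on 1 message, and with their counts summed 5 of 5 were called lower. Messages cut from shared precursors need not vary apart, so the 6 calls are not separate observations. Bulk tissue was measured, so fewer cells of a type, fewer mitochondria and less RNA in each cannot be told apart.

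**Figure D1:**
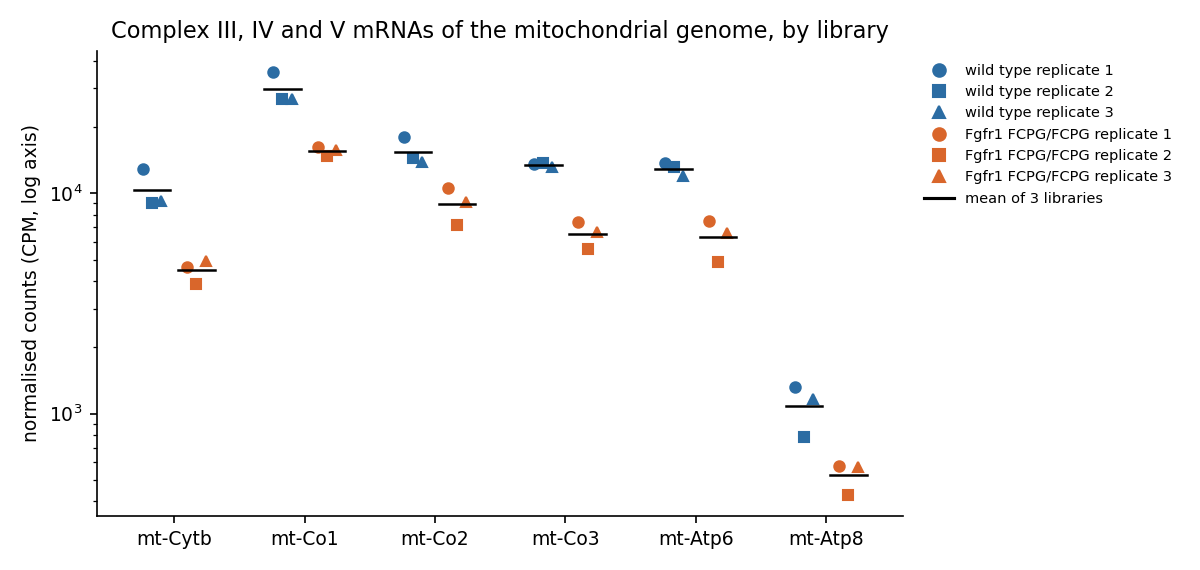
Normalised counts (CPM, log axis) of the 6 mitochondrial messages in each library, with wild-type libraries in blue, mutant libraries in orange and a black line at the mean of 3. For every message the 3 mutant libraries lie below the 3 wild-type libraries.

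mt-Cytb encodes the only mitochondrially encoded subunit of complex III, the one that holds both quinone sites. Its levels, given here and below in the order of replicates 1 to 3, were 12849, 9056 and 9228 CPM in the wild-type libraries and 4623, 3879.5 and 4909 CPM in the mutants. Wild-type replicate 1 was the highest, and even the lowest wild-type library was above all the mutants. The means were 10378 ± 2142 and 4471 ± 532 CPM (SD, n = 3 per group). This was a 2.32-fold fall, the largest of the 6, or -1.21 ± 0.15 on the log2 scale (SE), with an edgeR adjusted p of 0.0060.

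Of the complex IV messages, mt-Co1 encodes the subunit with the site where oxygen is reduced, mt-Co2 the subunit that takes electrons from cytochrome c, and mt-Co3 a core subunit without metal centres. mt-Co1 stood at 35586, 26774 and 26683 CPM in the wild-type libraries and at 16309, 14797 and 15679 CPM in the mutants. The mutant libraries lay close together, and wild-type replicate 1 stood above the other two. It fell 1.90-fold, or -0.93 ± 0.12 on the log2 scale (SE), with an edgeR adjusted p of 0.00695.

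mt-Co2 stood at 17963, 14520.2 and 13814 CPM in wild-type libraries, while the mutant libraries were at 10607, 7175 and 9132 CPM. Its groups came nearest to each other, and it had the smallest change of the 6, at -0.78 ± 0.15 on the log2 scale (SE), with an edgeR adjusted p of 0.0236. The call did not hold when wild-type replicate 1, 2 or 3 was left out (edgeR adjusted p = 0.0599, 0.0881 and 0.0567), nor with a term for embryo sex (edgeR adjusted p = 0.0588).

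mt-Co3 stood at 13521, 13680.2 and 13103 CPM in wild-type libraries, while the mutant libraries were at 7379, 5579 and 6692 CPM. Here wild-type replicate 1 did not stand apart, and the wild-type SD was 298 CPM on a mean of 13435 CPM. At -1.04 ± 0.11 on the log2 scale (SE) it had the smallest edgeR adjusted p of the 6, 0.00389.

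The complex V messages encode subunit a, which lines the proton path through the membrane (mt-Atp6), and the small subunit 8 beside it (mt-Atp8). mt-Atp6 stood at 13772, 13136 and 11961 CPM in wild-type libraries, while the mutant libraries were at 7455, 4884 and 6617 CPM, where replicate 2 was the lowest library. The change was -1.04 ± 0.15 on the log2 scale (SE), with an edgeR adjusted p of 0.00872. mt-Atp8 stood at 1318, 781 and 1165 CPM in wild-type libraries, while the mutant libraries were at 576, 429 and 574 CPM.

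Wild-type replicate 2 was the lowest wild-type library for mt-Atp8 but not for mt-Atp6. mt-Atp8 had the widest error of the 6, at -1.05 ± 0.19 on the log2 scale (SE), with an edgeR adjusted p of 0.0195. Leaving out wild-type replicate 2 ended the call of mt-Atp6 (edgeR adjusted p = 0.0575), and leaving out wild-type replicate 3 that of mt-Atp8 (edgeR adjusted p = 0.0786).

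When the counts of each complex were summed and the whole table was fitted again, all 3 complexes were called lower, against 3.64% of all features. Complex IV, the sum of 3 messages, went from 58549 ± 7418 to 31115 ± 3379 CPM (SD, n = 3 per group), or -0.91 ± 0.12 on the log2 scale (SE), with an edgeR adjusted p of 0.00699. Complex V, the sum of mt-Atp6 and mt-Atp8, went from 14045 ± 990 to 6845 ± 1389 CPM, which is -1.04 ± 0.14 on the log2 scale (SE), with an edgeR adjusted p of 0.0084. Complex III is mt-Cytb alone. Without wild-type replicate 2 the summed complex V lost its call (edgeR adjusted p = 0.0539). Set against a minimum log2 fold change of 0.5, 2 of the 6 messages, mt-Cytb and mt-Co3, were called lower, beside 0.838% of all features.

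**Figure D2:**
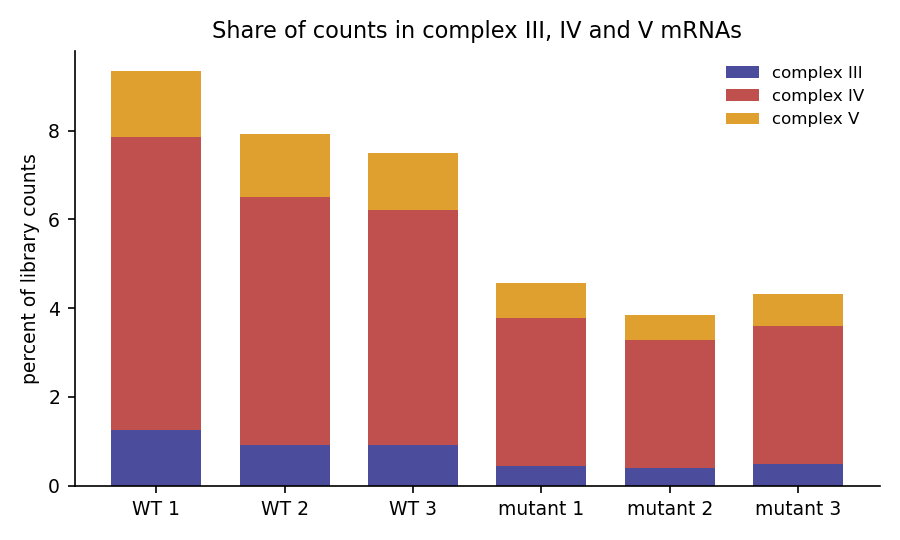
Percent of all counts of each library that fell in the messages of complex III (blue), complex IV (red) and complex V (yellow), stacked from 0. The 3 wild-type libraries reach 7.50% to 9.33% and the 3 mutant libraries 3.84% to 4.57%.

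As a share of all counts, the 6 messages took 9.33%, 7.92% and 7.50% in the wild-type libraries and 4.57%, 3.84% and 4.31% in the mutants. The means were 8.25% ± 0.96 and 4.24% ± 0.37 (SD, n = 3 per group). The groups did not overlap, and the two-sided exact permutation p was 0.1, the smallest that 3 against 3 libraries can give. Complex IV messages made up most of this share, at 5.82% ± 0.68 of all counts in the wild type and 3.11% ± 0.23 in the mutant. Set over the counts outside the mitochondrial genome, the share was 9.42% ± 1.28 in the wild type and 4.51% ± 0.41 in the mutant.

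Levels of different genes are compared per length, as CPM per kilobase of the annotated gene, in the group means. In the wild type the order was mt-Co2 at 22562 ± 3245, mt-Co1 at 19211 ± 3310, mt-Atp6 at 19026 ± 1350, mt-Co3 at 17136 ± 380, mt-Cytb at 9071 ± 1873 and mt-Atp8 at 5334 ± 1356 CPM per kilobase (SD, n = 3). mt-Co2 overlapped mt-Co1 and mt-Atp6 in its libraries, and mt-Co1 overlapped mt-Atp6 and mt-Co3. The lowest mt-Atp6 library, at 17563, lay just above the highest mt-Co3 library, at 17449. mt-Cytb lay below all 4 without overlap, and mt-Atp8 below mt-Cytb. mt-Atp8 and mt-Atp6 lie on the same message, yet their wild-type means were 5334 and 19026 CPM per kilobase. The place of mt-Atp8 in this order therefore cannot be read as the level of its message. The reason for the gap between these 2 genes was not tested. The order of the means was the same in the mutant, from mt-Co2 at 13116 ± 2518 down to mt-Cytb at 3908 ± 465 and mt-Atp8 at 2582 ± 414 CPM per kilobase. If only the bases not shared with a neighbour are counted as length, 161 for mt-Atp8 and 637 for mt-Atp6, mt-Atp8 stood at 6759 ± 1718 CPM per kilobase in the wild type and overlapped mt-Cytb. mt-Atp6 then stood at 20340 ± 1443, above mt-Co1, with overlapping libraries.

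The rest of the same genome can be set beside these falls. The 7 messages for complex I, the NADH dehydrogenase, were all called lower too, with log2 fold changes from -1.43 to -0.88 and a median of -1.27. mt-Rnr2, the large ribosomal RNA, stood at -0.75 ± 0.21 on this scale (SE, edgeR adjusted p = 0.0657), and mt-Rnr1, the small one, at 0.04 ± 0.21 (SE, edgeR adjusted p = 0.931). Of the 22 transfer RNA genes 20 were at 0 counts in every library, and mt-Tp alone was tested. It rose by 1.78 ± 0.25 on the log2 scale (SE, edgeR adjusted p = 0.00834), beside 4.25% of all features called higher. It lies on the strand opposite to the 6 messages, and the strand setting of the counting is not given in the sources used here. Its call was lost without wild-type replicate 2. The libraries rest on poly(A) capture, so the ribosomal and transfer RNA rows, including those at 0, need not follow the levels of these RNAs.

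**Figure D3:**
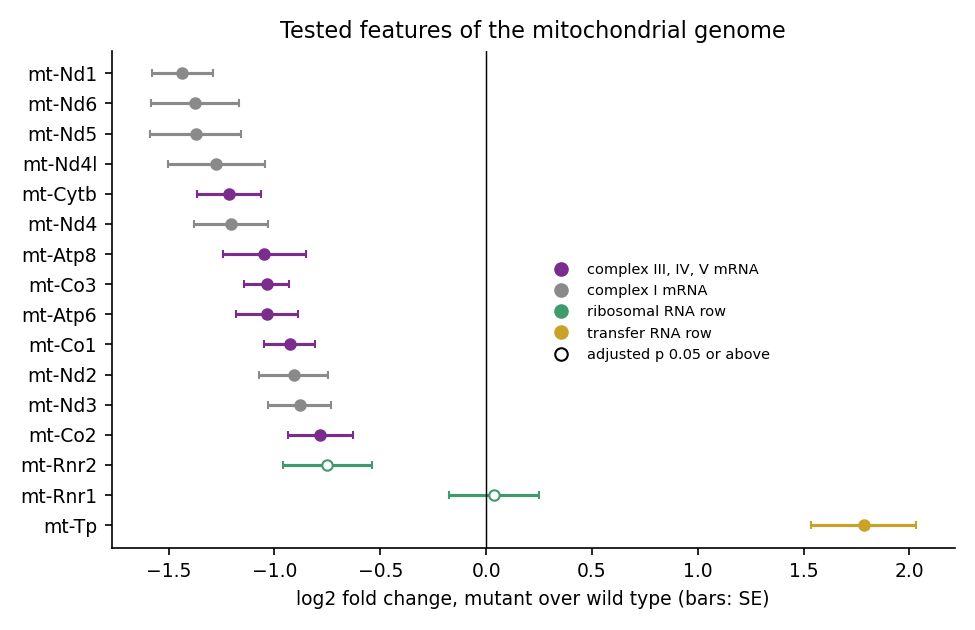
Log2 fold changes, mutant over wild type, of the 16 tested features of the mitochondrial genome, with bars for the SE. Filled points passed the test. The 6 messages of complexes III, IV and V (purple) lie between -1.21 and -0.78, inside and just above the span of the complex I messages (grey), while mt-Tp lies at 1.78.

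Ratios between counts of the same library do not depend on library size, and they show whether the messages changed by unlike amounts. Relative to the summed complex I messages, mt-Co1 stood on the log2 scale at -0.38, -0.28 and -0.32 in the wild type and at -0.07, 0.08 and -0.05 in the mutant. The ratio was higher in every mutant library, by 0.31 in the mean. mt-Co2 stood at -1.36, -1.16 and -1.27 in the wild type and at -0.69, -0.96 and -0.83 in the mutant on the same scale, again without overlap, and 0.44 higher in the mean. Each had a two-sided exact permutation p of 0.1, the smallest this design allows, and 0.3 after Benjamini-Hochberg adjustment over the 6 messages. mt-Nd1 gave the most counts to the complex I sum and fell furthest of its messages, with a log2 fold change of -1.43. By contrast, mt-Nd2 at -0.91 and mt-Nd3 at -0.88 fell about as much as mt-Co1 at -0.93. The ratio to the sum therefore need not hold for each complex I message.

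The same ratio of mt-Cytb was -1.85, -1.84 and -1.85 in the wild type, nearly one value, and -1.89, -1.85 and -1.73 in the mutant. Its groups overlapped, with a difference of 0.03. For mt-Co3, mt-Atp6 and mt-Atp8 the differences of 0.18, 0.17 and 0.20 went with overlapping groups (adjusted exact permutation p = 0.48 each). For mt-Co3 and mt-Atp6, wild-type replicate 1 had the lowest ratio of all 6 libraries, at -1.77 and -1.74.

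**Figure D4:**
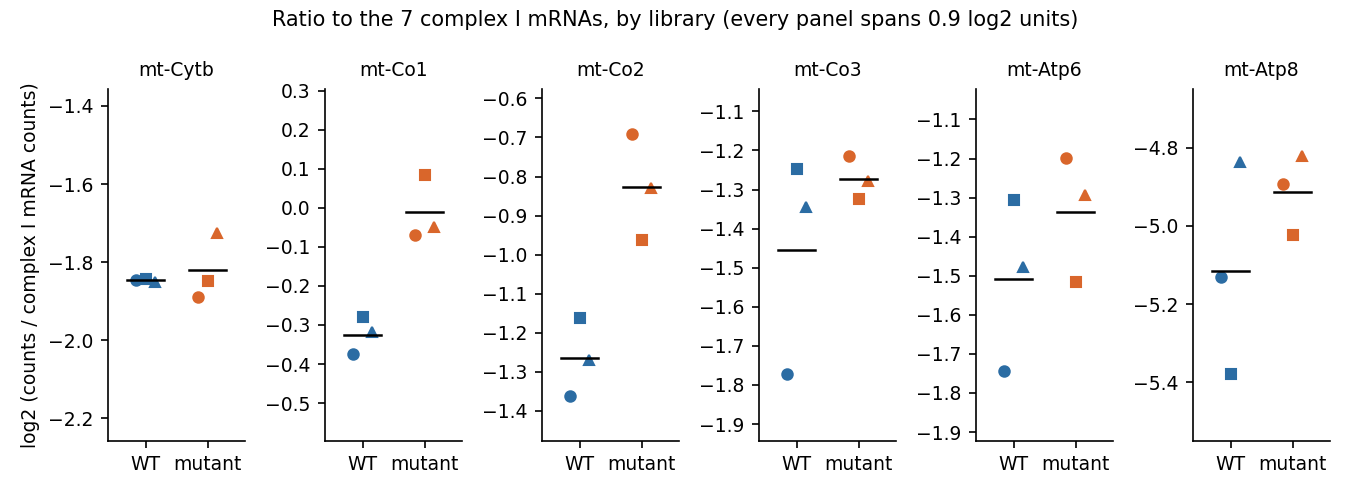
Log2 ratio of the counts of each message to the summed counts of the 7 complex I messages, by library, with circles, squares and triangles for replicates 1 to 3 and a line at the group mean. Every panel has the same span. The groups are apart for mt-Co1 and mt-Co2 and overlap for the other 4.

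Among the 6, all 15 pairwise ratios were compared. In 3 of them the groups did not overlap: on the log2 scale, mutant minus wild type, mt-Cytb over mt-Co1 differed by -0.29, mt-Cytb over mt-Co2 by -0.41, and mt-Co2 over mt-Atp6 by 0.26. All 3 had an exact permutation p of 0.1 and an adjusted p of 0.5 over the 15 pairs, so none passed. Complex IV over complex III, summed, was 2.51 ± 0.11 in the wild type and 2.80 ± 0.11 in the mutant (log2 ratio, SD, n = 3 per group). The groups did not overlap, with an exact permutation p of 0.1 and an adjusted p of 0.2. Complex V over complex III and complex IV over complex V had overlapping groups (exact permutation p = 0.5 and 0.3).

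mt-Co3 and mt-Atp6, neighbours in the genome, had the narrowest ratio of the 15 in range. It stood at -0.03, 0.06 and 0.13 on the log2 scale in the wild type and at -0.01, 0.19 and 0.02 in the mutant, with overlapping groups. mt-Atp6 over mt-Atp8, which share 1 message, stood at 3.39, 4.07 and 3.36 in the wild type and at 3.69, 3.51 and 3.53 in the mutant. Wild-type replicate 2 was the library that stood apart there. As shares of the counts of the 13 mitochondrial messages, mt-Co1 took 24.6% ± 0.5 in the wild type and 26.9% ± 2.0 in the mutant, and mt-Co2 12.8% ± 0.3 and 15.3% ± 1.2 (SD, n = 3 per group). Both were higher in every mutant library (exact permutation p = 0.1).

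Likeness was measured as the Pearson correlation of log2 CPM with the mean of the 6 messages over the 6 libraries, which fall into 2 groups, so a high value needs a difference between genotypes. The 4 other features of the mitochondrial genome most like them were mt-Nd1 (r = 0.992), mt-Nd3 (0.985), mt-Nd4 (0.977) and mt-Nd2 (0.971). Of the 14534 tested features outside that genome, 29 reached the value of mt-Nd2 and 6 that of mt-Nd3. The ribosomal RNA rows mt-Rnr2 and mt-Rnr1 had values of 0.762 and 0.187, and mt-Tp one of -0.882.

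Embryo sex, as read from the Y-linked names, was unevenly spread over the groups. Among libraries without Y-linked counts, 2 wild-type and 1 mutant, the difference in mean log2 CPM, mutant minus wild type, ran from -0.98 for mt-Cytb to -0.42 for mt-Co2. Among those with Y-linked counts, 1 wild-type and 2 mutant, it ran from -1.56 for mt-Cytb to -1.15 for mt-Co3. The wild-type library in this set was replicate 1, which had the highest share of counts in the 6 messages (9.33%). The sizes in the 2 sets thus cannot be compared as an effect of sex. All 6 messages were thus lower in the mutant in both sets. These differences were not tested. The feature named for Hemgn, an erythroid gene, also differed between the genotypes, with wild-type libraries at 103.3, 68.2 and 62.8 CPM and mutant libraries at 22.4, 15.9 and 10.7 CPM. Of 16 erythroid marker names, a list chosen with earlier results known, 5 reached 10 CPM. Of the 8 tested, 2 were called lower, Hemgn and Tspan33, beside 3.67% of all features. The summed level of the 16 ran from 240.2 to 304 CPM in the wild type and from 138 to 156 CPM in the mutant. Most of that difference lay in Hemgn and Tspan33. The other 3 names above 10 CPM had log2 fold changes of -0.32 for Hba-a1, -0.13 for Hba-x and 0.07 for Slc4a1 (edgeR adjusted p = 0.121, 0.491 and 0.799). The defining markers Hbb-y, Hbb-bh1 (globins) and Alas2 (heme synthesis) were at 0 counts throughout, under names that could not be relied on. Of the tailbud marker names 2 were tested, and Tbx6 was called lower, at -0.60 on the log2 scale (edgeR adjusted p = 0.0138). Its wild-type libraries were at 36.9, 38.7 and 42.3 CPM and its mutant libraries at 26.9, 26.6 and 24.1 CPM. The other, Hes7, had a mean of 0.417 CPM and was not called, at -0.14 (edgeR adjusted p = 0.885). The part of these markers in the falls of the 6 messages was not tested.

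The authors' deposited table gives log2 fold changes of -1.21 for mt-Cytb, -0.92 for mt-Co1, -0.78 for mt-Co2, -1.03 for mt-Co3, -1.03 for mt-Atp6 and -1.04 for mt-Atp8. It was made from the same counts and is no independent measurement.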

How the data were processed

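The table deposited by the authors holds whole-number read counts, 1 row for each Ensembl ID. Bowtie and featureCounts, the tools DESeq2 and DESeq, and build mm39 are named in the submitters' processing notes, with no version, annotation or strand setting given there. The kit kept strand, per the labels' protocols. The letter and number of each column name gave its sample. The column names also hold an unexplained 10-5, which differs from the labelled embryonic day 9.5, and the label is followed. IDs were cut to 18 characters and matched to GENCODE M21, an older build, so no coordinates are given. Sequences come from its transcripts.

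The authors' deposited DESeq2 table gives, per the file headers, a log2 fold change with its standard error, a Wald score, a p-value and a mean normalized signal. It was used for comparison only.

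Counts of all 6 libraries were tested in R 4.3.3 with edgeR 4.0.16 (quasi-likelihood F test, filterByExpr, TMM, no covariate) and Benjamini-Hochberg adjustment over 14550 features, and the fit was tested on simulated data. The SE comes from the F statistic. CPM uses TMM-scaled library sizes, and log2 CPM a prior count of 2. Sums of markers use library totals. Shares and ratios were compared with two-sided exact permutation tests. The genes named are the 6 messages, the rest of the mitochondrial genome, the 4 features of that genome with the highest Pearson correlation, and fixed marker lists, of which 1 marker is not reported here. Members and lists were chosen with earlier results of these data known. Depth was 16984568 to 27316475 counts per library. Alternatives were DESeq2 1.42.0, limma-voom (limma 3.58.1), other size factors, filters and library sizes, a replicate block, a term for embryo sex, a fold minimum and each library left out.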

Additional observations from a re-analysis of the deposited data

How the results depend on the processing

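The direction of all 6 messages and 3 complexes held in every alternative fit, with log2 fold changes from -1.27 to -1.19 for mt-Cytb and from -0.82 to -0.76 for mt-Co2 over the 9 fits on all libraries. Against a log2 fold change of 0.5, 2 of 6 messages and 4 of 7 complex I messages were lower, and mt-Co1 at -0.93 (adjusted p = 0.0525 by edgeR), mt-Co2 at -0.78 (0.267), mt-Atp6 at -1.04 (0.0524), mt-Atp8 at -1.05 (0.118) and complex IV at -0.91 (0.0546) lost their call, which asks for a larger change. A term for embryo sex ended the call of mt-Co2 at -0.78. Without 1 library each, 4 to 6 of the 6 messages were lower, with mt-Co2 from -0.91 to -0.64, mt-Atp6 from -1.16 to -0.87, mt-Atp8 from -1.24 to -0.88 and complex V from -1.16 to -0.87. mt-Tp was called in 5 of these 6 fits (0 without wild-type replicate 2, otherwise 1). 1 ribosomal RNA row was called with the DESeq2 Wald test and 1 with no low-count filter.

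Over all features, 534 were lower and 618 higher, against 122 and 94 with the fold minimum, 264 and 273 with the term for embryo sex, 1145 and 1352 with no low-count filter, 796 and 967 with the DESeq2 Wald test, and 63 to 565 and 66 to 783 without 1 library each, the fewest without wild-type replicate 2.

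No ratio passed its permutation test, and some changed sign in other settings. With the other 12 messages as reference in place of complex I, mt-Cytb differed by -0.17, mt-Co3 by -0.0035 and mt-Atp6 by -0.0134. The other 3 kept their sign but were smaller. On this reference mt-Co1 differed by 0.17 (0.31 over complex I), mt-Co2 by 0.29 (0.44) and mt-Atp8 by 0.0177 (0.20). Without 1 library each, the ratio of mt-Cytb to complex I ran from -0.0221 to 0.0596, mt-Cytb over mt-Co3 from -0.26 to 0.0019, mt-Co1 over mt-Atp8 from -0.0266 to 0.26, mt-Co3 over mt-Atp6 from -0.0538 to 0.0496, mt-Co3 over mt-Atp8 from -0.17 to 0.22 and mt-Atp6 over mt-Atp8 from -0.15 to 0.20. Pairs without overlap numbered 3 to 7, since fewer libraries overlap less. Deviations from the group means correlated at -0.23, -0.01 and -0.01 between libraries of equal number, so the numbers were not taken to pair libraries. With the replicate block all 6 messages kept their call, at -1.20 for mt-Cytb and -0.79 for mt-Co2, and 411 features were lower and 433 higher. Spearman in place of Pearson correlation gave the same 4 most alike features. Where no reason is given above, the cause was not tested.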
